A study of Mus musculus with 8 samples.

Results

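Before a sperm can fertilise an egg it has to pass the cumulus cells and their hyaluronan matrix, and then bind to and fuse with the egg membrane. Transcripts of 9 mouse genes for these steps are described here in adult testis: Izumo1, Izumo2, Izumo3, Spaca6, Tmem95, Dcst1 and Dcst2 for gamete fusion, and Spam1 and Hyal5 for the hyaluronidases. They were chosen by name, with earlier results of these data known. Their Ensembl identifiers were looked up among the 56748 of the count table, and all 9 were found. RNA sequencing covered 4 libraries labelled Ak9 knockout (genotype Ak9-/-) and 4 labelled wild type, all from whole adult testis. The labels give neither strain nor age, and they do not describe the Ak9 allele. Nor do they tell separate animals from repeat libraries of 1 animal, so the p-values speak of variation between libraries, part of which may be technical. AK9 is an adenylate kinase, an enzyme of adenine nucleotide balance, and the comparison asks whether its loss goes with a change of testis transcripts.

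IZUMO1 is the sperm surface protein that docks on JUNO, the folate-receptor-like protein of the egg membrane, after the acrosome has released its contents. SPACA6, TMEM95, DCST1 and DCST2 are further sperm membrane proteins without which mouse sperm bind eggs but fail to fuse, and IZUMO3 is known in mice for its part in building the acrosome. SPAM1 (PH-20) and HYAL5 are hyaluronidases held on the sperm by a lipid anchor, and they digest the matrix between cumulus cells. The genes are mainly transcribed in the haploid germ cells of the testis, the spermatids, and the proteins act much later, in the oviduct.

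Totals ran from 18062780 to 24415587 counts per library, and levels are given as CPM, counts put on a common library size with TMM factors. A count of 0 allows up to 0.123 to 0.166 CPM per library, taking 3 counts as the 95% limit, which covers counting error only. The 9 genes had 247 to 3387 counts in each library and all passed the filter on low counts. Ak9 itself had 69.3, 116, 101 and 40.6 CPM in labelled knockouts 1 to 4, against 108, 115, 122 and 107 CPM in wild types 1 to 4 (log2 fold change -0.47, SE 0.25, edgeR adjusted p = 1.00; exact two-sided permutation p = 0.143, where 0.0286 is the smallest possible). With each library left out in turn, the Ak9 log2 fold change ran from -0.69 without labelled knockout 2 to -0.24 without labelled knockout 4, and it passed edgeR's test in none of these fits. The Ak9 level of labelled knockout 2 was among those of the wild types, so the libraries are called by their labels throughout. Labelled knockout 3 stood apart, and results are given with and without it. Spermatid markers were present in every library: the 12 round spermatid markers summed to 6533, 6008, 3662 and 6345 CPM in labelled knockouts 1 to 4, against 4989 to 5596 CPM in wild types.

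The start regions of part of the genes share short sequence patterns, and the stretches that carry them are shown first. RefSeq promoter windows of GRCm38.p6, 250 bases before to 50 after a gene's start, were matched for all 9 genes. They were searched on both strands for TGACGTCA, the full cAMP response element known as a binding sequence of CREB and CREM factors, and for TGANGTCA, the same letters with any base at the central position. The relaxed form was found in 5 of the 9 windows (55.6%), against 8.83% of all 32851 mouse windows. The full element was found in Izumo1 only (11.1%), against 1.79% of all windows. The matches stand in capitals in 30 bases of context, each on the strand of its gene.
Izumo1, chr7:45621704-45621733: ctgccaccctaTGACGTCAcgatgggatgg
Izumo2, chr7:44708711-44708740: ggtcgcccctgTGAGGTCAcaaagtcccca
Spaca6, chr17:17830994-17831023: ctcccccacaaTGACCTCAcaaaggtcact
Spam1, chr6:24791131-24791160: agttcactttgTGATGTCAtctgttcctag
Hyal5, chr6:24857901-24857930: tgtctactttgTGATGTCAtctgcttctag
Hyal5, chr6:24857950-24857979: aatcctttctaTGAGGTCAcctgtggagat

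The matches begin 96 bases before the start of Izumo1, 8 before that of Izumo2, 46 before that of Spam1, and 85 and 36 before that of Hyal5. The Spaca6 match begins 30 bases after its RefSeq start. GENCODE M21 starts Spaca6 further upstream, at chr17:17827158, so the window of chr17:17830725-17831024 lies inside the gene as placed there. In Izumo2, Spaca6, Spam1 and the distal match of Hyal5, the element overlaps CTTTGTGA, read on either strand, a string noticed in these windows and then counted. CTTTGTGA occurs in 1.88% of all windows. An overlapping or touching pair of it with TGANGTCA occurs in 50 of the 32851 windows (0.152%), 4 of which belong to these genes. Among 25 windows of other sperm factors for egg binding and fusion, TGANGTCA was found in 6 (24.0%) and the pair in 0. The string was chosen on these same windows, so the counts describe them and test nothing. No match was found in the windows of Izumo3, Tmem95, Dcst1 and Dcst2, which says only that these letters are not there.

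The hyaluronidase pair shares a longer run. Spam1 (chr6:24791188-24801048) and Hyal5 (chr6:24857997-24891958) are neighbours on the plus strand, 56.9 kb apart, next to Hyal4 and Hyal6. In GENCODE M21 the Spam1 transcript aligns with that of Hyal5 over 78.8% of its length at 71.4% identity, under the 95% over 80% taken here as a near copy. A run of 18 bases, in capitals here, occurs in their 2 promoter windows and in no other of the 32851. Their windows also hold 0 CG dinucleotides each at 39.7% G and C, where the medians over all windows are 7 and 52.7%. This is not particular to the pair, as the Izumo3 window holds 0 CG too, at 42.0% G and C.
Spam1, chr6:24791076-24791187: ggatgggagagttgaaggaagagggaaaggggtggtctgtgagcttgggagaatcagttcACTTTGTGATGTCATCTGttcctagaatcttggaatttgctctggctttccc
Hyal5, chr6:24857846-24857983: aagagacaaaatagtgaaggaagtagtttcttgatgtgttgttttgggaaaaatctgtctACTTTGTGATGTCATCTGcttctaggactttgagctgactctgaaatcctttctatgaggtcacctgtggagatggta

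Dcst1 and Dcst2 form a head-to-head pair on chromosome 3. The RefSeq start of Dcst1, on the minus strand, and that of Dcst2, on the plus strand, are separated by the 65 bases shown here on the plus strand with the single CG in capitals. GENCODE M21 also starts a Dcst2 transcript further upstream, inside Dcst1, without shared exonic bases.
Between the Dcst1 and Dcst2 starts, chr3:89365254-89365318: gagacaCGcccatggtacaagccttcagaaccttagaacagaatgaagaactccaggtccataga

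Levels between genes were compared per kb of exon in GENCODE M21, on GRCm38 rather than the authors' build. In wild types Izumo2 was the highest at 89.4 ± 8.32 CPM per kb (SD, n = 4), followed by Izumo3 at 69.1 ± 7.39, Hyal5 at 56.6 ± 5.10, Tmem95 at 37.6 ± 3.44, Spam1 at 34.3 ± 6.17, Dcst2 at 29.3 ± 2.35, Izumo1 at 24.7 ± 1.97, Dcst1 at 11.2 ± 1.10 and Spaca6 at 5.28 ± 0.258. The means of the libraries labelled knockout, 105.7 ± 32.9 CPM per kb for Izumo2 down to 5.22 ± 0.438 for Spaca6, stand in the same order. Among wild types, the ranges of neighbours in this order did not overlap between Izumo2 and Izumo3, Hyal5 and Tmem95, Izumo1 and Dcst1, or Dcst1 and Spaca6, and they overlapped in the other 4 steps. In libraries labelled knockout only the step between Dcst1 and Spaca6 was free of overlap. The long exonic length listed for Spaca6, 7067 bases against 531 to 5241 in the other genes, enters its low place. The same holds for Dcst1 at 5241 bases, since these lengths pool the exons of all transcripts of a gene. The longest single transcript has 4074 bases for Spaca6 and 2342 for Dcst1.

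**Figure D1:**
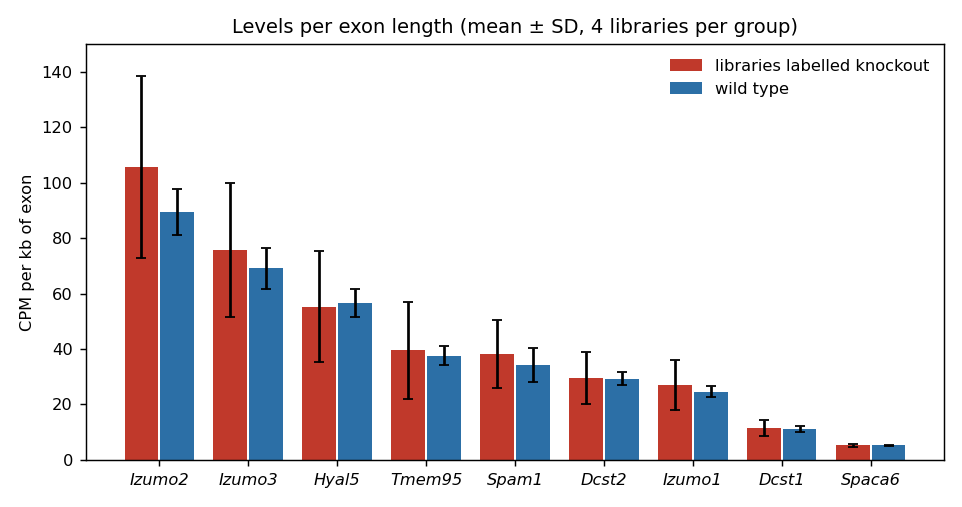
Level per kb of exon (CPM per kb, TMM-scaled) of the 9 genes, ordered by the wild-type mean. Bars are means of 4 libraries labelled knockout and 4 wild types with SD; Izumo2 leads at 105.7 and 89.4 CPM per kb, and Spaca6 is lowest at 5.22 and 5.28.

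Between the groups, none of the 9 genes passed edgeR's quasi-likelihood test at 0.05 over 21805 genes (all adjusted p = 1.00). Over all tested genes 0.0183% passed, 4 higher and 0 lower, and an unadjusted p under 0.05 was reached by 272 higher and 390 lower genes but by 0 of the 9. DESeq2, which passed 23 higher and 23 lower genes of the 21805, and limma-voom, which passed 4 higher and 0 lower, also passed 0 of the 9. The log2 fold changes ran from -0.04 to 0.24, 7 above 0 and 2 below, with a median of 0.07, against a median of 0.01 and 52.9% above 0 over all tested genes. For 0 of the 9 did all libraries labelled knockout lie above all wild types, a pattern seen in 0.981% of tested genes, or below them, seen in 1.32%. The spread was wider among the libraries labelled knockout, with a coefficient of variation of 8.40% to 44.3% of CPM, against 4.88% to 18.0% in wild types.

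Izumo1 (ENSMUSG00000064158, chr7:45621811-45628823, plus strand) had 98.7, 94.2, 40.1 and 89.9 CPM in labelled knockouts 1 to 4, against 75.6, 66.1, 80.3 and 73.2 CPM in wild types 1 to 4. Labelled knockouts 1, 2 and 4 were above every wild type and labelled knockout 3 was below every one. The means were 80.7 ± 27.3 and 73.8 ± 5.90 CPM (SD, n = 4 each), a log2 fold change of 0.13 with an SE of 0.23. Of its exonic length, 21.9% is shared with Rasip1 on the same strand, a gene with 2.94 ± 0.513 CPM in the labelled knockouts and 2.77 ± 0.436 CPM in the wild types. Izumo2 (ENSMUSG00000066500, chr7:44708742-44719844, plus strand), a family member with the same kind of domain, had 92.0, 82.2, 41.4 and 90.6 CPM in libraries labelled knockout, against 70.4, 57.1, 62.9 and 68.6 CPM in wild types. The split was as for Izumo1, with labelled knockouts 1, 2 and 4 above the wild-type range and labelled knockout 3 below it. Its log2 fold change of 0.24 (SE 0.21) was the largest of the 9. Izumo3 (ENSMUSG00000028533, chr4:92144329-92147234, minus strand), the acrosome gene, had 107, 111, 50.1 and 115 CPM in libraries labelled knockout, against 78.3, 80.6, 97.6 and 92.8 CPM in wild types. It showed the same split, and its log2 fold change was 0.13 (SE 0.22).

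The other fusion genes did not show the split of Izumo1, Izumo2 and Izumo3. Spaca6 (ENSMUSG00000080316, chr17:17827158-17843009, plus strand), which also hosts the microRNA genes Mir99b, Mirlet7e and Mir125a, had 41.4, 36.0, 34.3 and 35.7 CPM in labelled knockouts 1 to 4, against 39.0, 36.2, 35.3 and 38.7 CPM in wild types 1 to 4. The groups overlapped and labelled knockout 3 was the lowest by a narrow margin (log2 fold change -0.02, SE 0.10). Tmem95 (ENSMUSG00000094845, chr11:69876684-69878018, minus strand) had 33.8, 20.8, 12.2 and 16.97 CPM in libraries labelled knockout, against 20.8, 17.2, 20.9 and 20.8 CPM in wild types. Labelled knockout 1 was the highest of the 8 and labelled knockouts 3 and 4 were below all wild types (log2 fold change 0.07, SE 0.25). Dcst1 (ENSMUSG00000042672, chr3:89350219-89365253, minus strand) had 75.4, 53.2, 43.4 and 71.9 CPM in libraries labelled knockout, against 59.4, 50.9, 64.8 and 59.7 CPM in wild types. Dcst2 (ENSMUSG00000109293, chr3:89361975-89377549, plus strand), whose protein works with DCST1, had 80.6, 52.5, 45.8 and 91.0 CPM in libraries labelled knockout, against 69.4, 59.1, 71.2 and 67.9 CPM in wild types. In both genes labelled knockouts 1 and 4 were above all wild types and labelled knockout 3 was below them (log2 fold changes 0.05 with SE 0.17, and 0.01 with SE 0.20). Labelled knockout 2 was within the wild-type range for Dcst1 and below it for Dcst2. Since the strand setting of the counting is not given, reads of Dcst1 cannot be told from those of Gm10702, a pseudogene on the other strand that shares 24.2% of its exonic length.

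Spam1 (ENSMUSG00000029682), the testis form of hyaluronidase long known as PH-20, had 103, 94.8, 44.0 and 96.0 CPM in labelled knockouts 1 to 4, against 59.0, 73.2, 91.7 and 80.5 CPM in wild types 1 to 4. Labelled knockouts 1, 2 and 4 exceeded all wild types, labelled knockout 3 was below all, and the wild types were spread more widely than for the other genes (84.4 ± 27.2 and 76.1 ± 13.7 CPM, log2 fold change 0.15, SE 0.23). Hyal5 (ENSMUSG00000029678), its rodent neighbour, had 143, 149, 55.6 and 130 CPM in libraries labelled knockout, against 111, 124, 137 and 119 CPM in wild types. Labelled knockouts 1 and 2 were above all wild types, labelled knockout 4 lay among them and labelled knockout 3 was lowest (119 ± 43.3 and 123 ± 11.04 CPM, log2 fold change -0.04, SE 0.25).

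**Figure D2:**
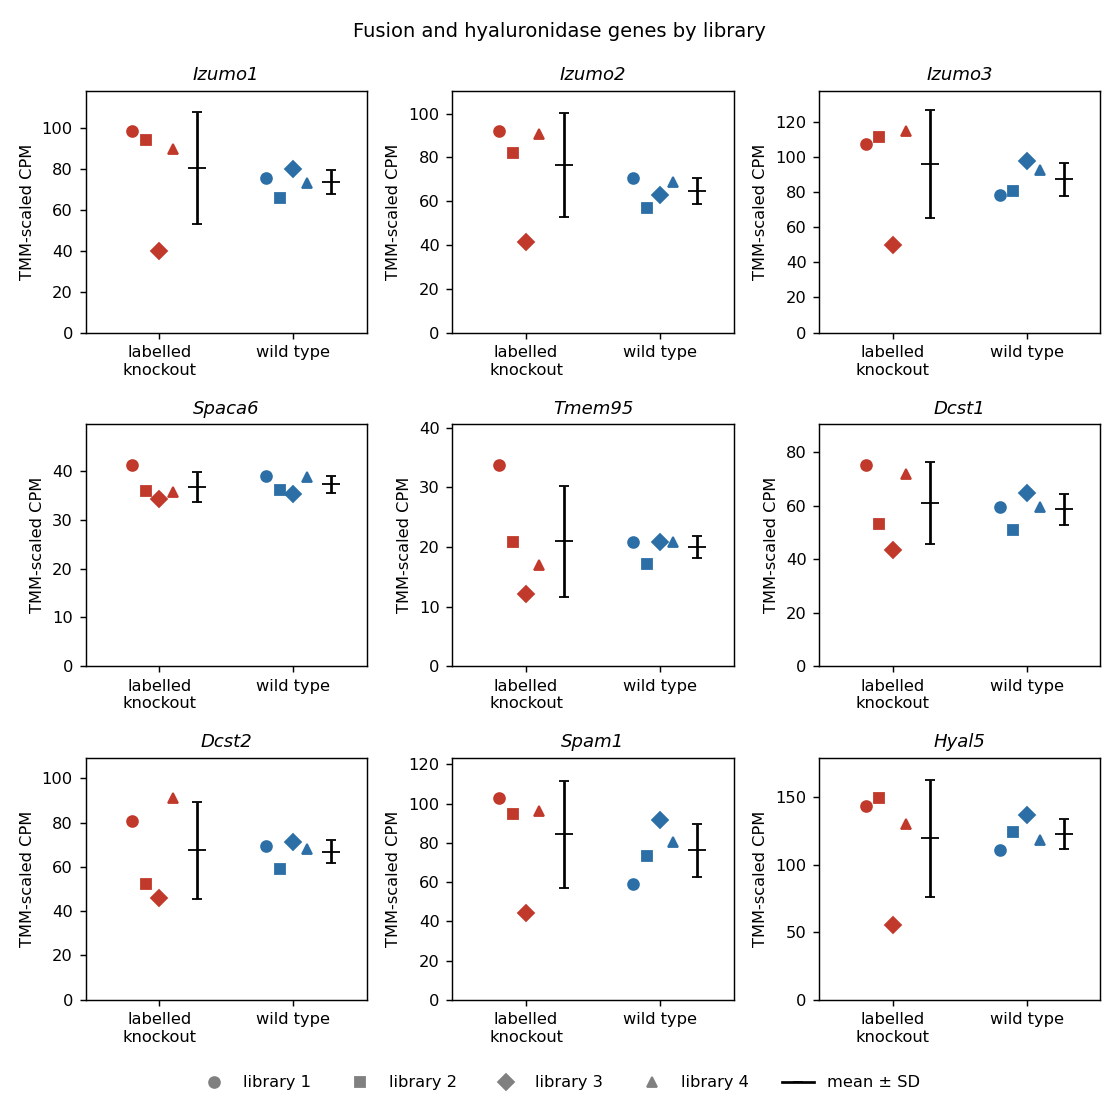
TMM-scaled CPM of each gene in every library (symbols mark libraries 1 to 4), with mean ± SD to the right of each group. The diamond of labelled knockout 3 is the lowest point in all 9 panels, at 40.1 CPM for Izumo1 and 55.6 CPM for Hyal5, and Spaca6 is the gene with the smallest spread.

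Labelled knockout 3 was the lowest of the 8 libraries for 9 of the 9 genes, a place it took for 29.1% of all tested genes. Its level was 45.4% of the wild-type mean for Hyal5, 54.4% for Izumo1, 57.3% for Izumo3, 57.8% for Spam1, 61.1% for Tmem95, 63.9% for Izumo2, 68.4% for Dcst2, 74.0% for Dcst1 and 92.0% for Spaca6. The median over the 9 was 61.1%, against 99.3% over all tested genes. Spermatid markers moved with them: labelled knockout 3 was lowest for 12 of 12 round spermatid markers, at a median of 61.6% of the wild-type mean, and for 14 of 14 elongating spermatid markers, at 59.5%. For Sertoli cells, the somatic nurse cells, it was highest for 10 of 12 markers, at a median of 139%, a place it took for 27.8% of all tested genes and 0 of the 9. It was highest for 3 of 8 peritubular and stromal markers (median 144%), 2 of 8 Leydig cell markers (109%), 0 of 6 macrophage markers (97.3%) and 0 of 5 endothelial markers (87.0%). Among earlier germ cells, it was highest for 5 of 10 spermatogonia markers and lowest for 1 (median 114%). For spermatocytes it was highest for 5 of 12 markers and lowest for 3 (median 108%). In such bulk RNA, fewer cells of a type and less RNA per cell cannot be told apart. The same library also held epididymal transcripts, with 12 markers summing to 266.9 CPM, against 46.3 CPM in labelled knockout 4, 7.80 and 8.35 CPM in labelled knockouts 1 and 2, and 8.90 to 11.6 CPM in wild types. Crisp1 (185 CPM), Spink8 (50.6 CPM) and Adam7 (26.2 CPM) made up most of the sum in labelled knockout 3. Rnase10 (3.11 CPM, against 4.89 to 7.06 CPM in wild types) and Crisp4 (1.04 CPM, against 1.15 to 1.92 CPM) were below all wild types there. Gpx5, Defb20 and Cst11 were at 0 there and at 0.283 CPM at most in the other libraries. The part of spermatid content and of epididymal RNA in these levels was not tested.

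**Figure D3:**
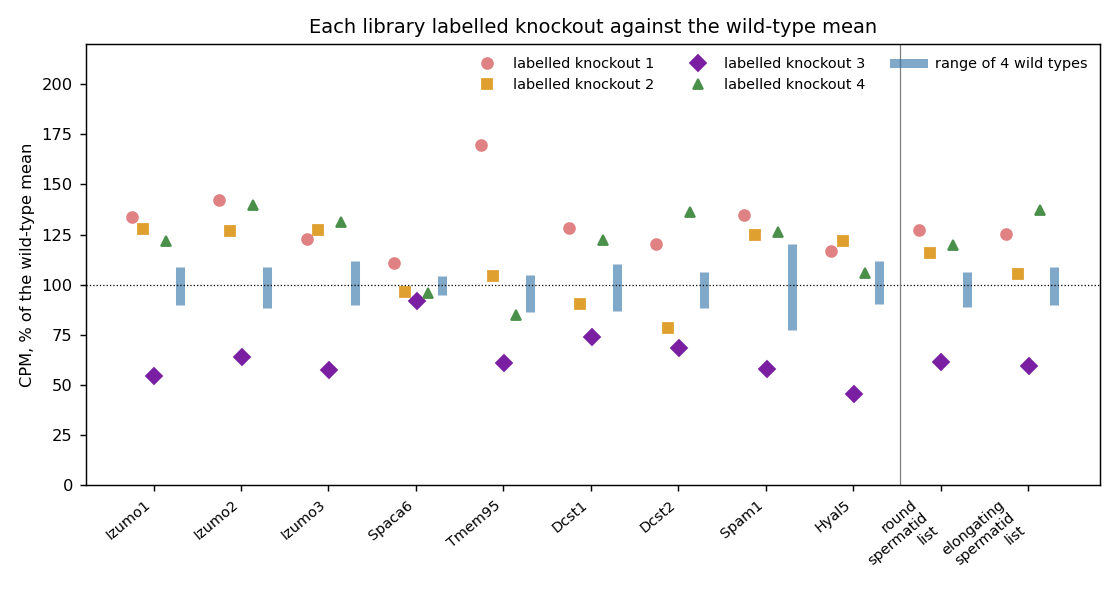
Level in each library labelled knockout as a percentage of the wild-type mean, with the range of the 4 wild types as a bar; for the marker lists, right of the line, the median over 12 round and 14 elongating spermatid markers. Labelled knockout 3 lies below the bar for every gene and both lists, at 45.4% for Hyal5 and 92.0% for Spaca6.

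The other 3 libraries labelled knockout lay above wild type for part of the genes. Labelled knockouts 1, 2 and 4 were above all 4 wild types for Izumo1, Izumo2, Izumo3 and Spam1, 4 of 9, against 9.42% of all tested genes. Their means were 127.7%, 136.3%, 127.2% and 128.6% of the wild-type mean in that order, and 101.1% to 119.7% for the other 5. The same held for 10 of 12 round spermatid markers, 5 of 14 elongating spermatid markers and 10 of 29 other sperm factors for egg binding and fusion. In a fit without labelled knockout 3, 0.158% of 22131 genes passed edgeR's test and again none of the 9. The log2 fold change was then 0.44 for Izumo2 (SE 0.08, adjusted p = 0.0734), 0.34 for Izumo1 (SE 0.08, adjusted p = 0.0960), 0.33 for Izumo3 (SE 0.09, adjusted p = 0.106), 0.35 for Spam1 (SE 0.12, adjusted p = 0.176) and 0.19 for Hyal5 (SE 0.09, adjusted p = 0.272). For Tmem95, Dcst1, Dcst2 and Spaca6 it was 0.25, 0.17, 0.14 and 0.004, with edgeR adjusted p from 0.446 to 0.984.

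A fit over all 8 libraries with a spermatid score as a covariate, the mean log2 CPM of the round and elongating spermatid markers, narrowed the errors. Izumo1 then had a log2 fold change of 3.81e-05 (SE 0.11), Izumo3 of 0.02 (SE 0.10), Spam1 of 0.02 (SE 0.13) and Hyal5 of -0.18 (SE 0.12). Izumo2 had 0.13 (SE 0.06, unadjusted p = 0.0464, edgeR adjusted p = 0.667). With the score subtracted from log2 CPM in each library and the wild-type mean set to 0, Izumo2 stood at 0.14, 0.20, 0.08 and 0.12 in labelled knockouts 1 to 4, against 0.03, -0.02, -0.05 and 0.05 in wild types 1 to 4. All 4 libraries labelled knockout, labelled knockout 3 included, were above all wild types on this scale, for 1 of the 9 genes and for 0.344% of all tested genes. The opposite pattern was seen in 0 of the 9 and in 1% of all tested genes. The score was subtracted from every tested gene, whether or not that gene followed it. The shares over all tested genes are therefore not a like background for a gene that follows the score, as Izumo2 does. Spaca6 stood at -0.22, -0.20, 0.60 and -0.43 in libraries labelled knockout, against -0.10 to 0.11 in wild types, with labelled knockout 3 the highest, where the score was lowest and Spaca6 was at 92.0% of the wild-type mean. This subtraction was added after the values were seen.

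**Figure D4:**
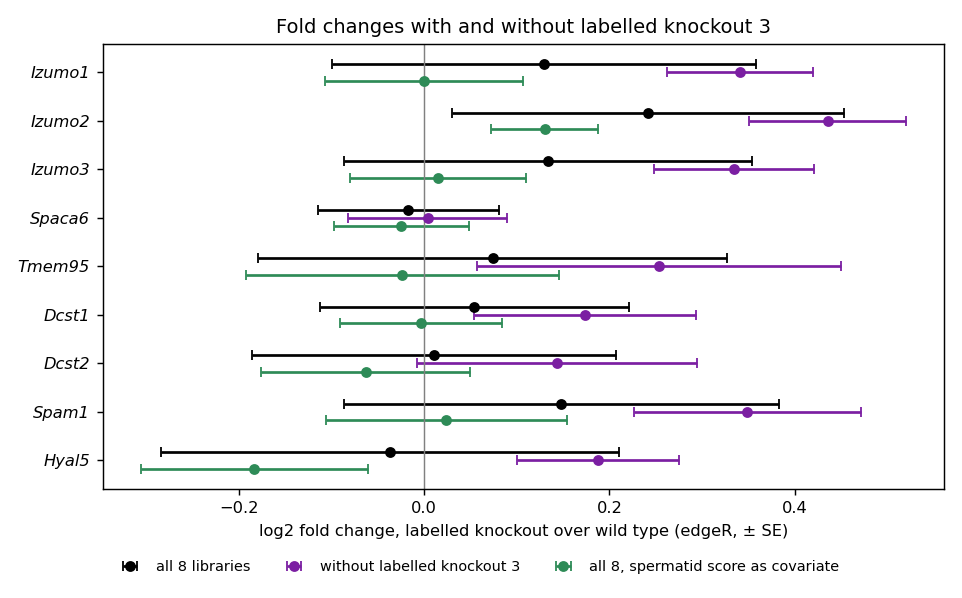
Log2 fold change of each gene, labelled knockout over wild type, with its SE from edgeR, in 3 fits: all 8 libraries, without labelled knockout 3, and all 8 with the spermatid score as a covariate. Izumo2 lies at 0.24, 0.44 and 0.13 in them, and Izumo1 at 0.13, 0.34 and 3.81e-05.

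Ratios within a library, free of any scaling, set the neighbouring genes against each other. The ratio of Spam1 to Hyal5 counts was 0.717, 0.636, 0.791 and 0.739 in labelled knockouts 1 to 4, against 0.533, 0.591, 0.669 and 0.680 in wild types 1 to 4. Labelled knockouts 1, 3 and 4 exceeded all wild types and labelled knockout 2 fell among them. On the log2 scale the means were -0.48 ± 0.132 and -0.70 ± 0.165 (SD, n = 4 each), a difference of 0.22 with an exact two-sided permutation p = 0.0857 (adjusted 0.171 over 2 ratios, smallest possible 0.0286). Without labelled knockout 3 the difference was 0.18 (exact permutation p = 0.171). The ratio of Dcst1 to Dcst2 was 0.936, 1.01, 0.948 and 0.790 in libraries labelled knockout, against 0.857, 0.861, 0.909 and 0.879 in wild types. The groups overlapped, with labelled knockout 4 lowest and the other libraries labelled knockout above all wild types (log2 means -0.12 ± 0.153 and -0.19 ± 0.0389, difference 0.07, exact permutation p = 0.429, adjusted 0.429). Without labelled knockout 4 the difference was 0.14 with an exact permutation p = 0.0286, the smallest that 3 against 4 libraries allow, and no adjustment was made for choosing that library.

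**Figure D5:**
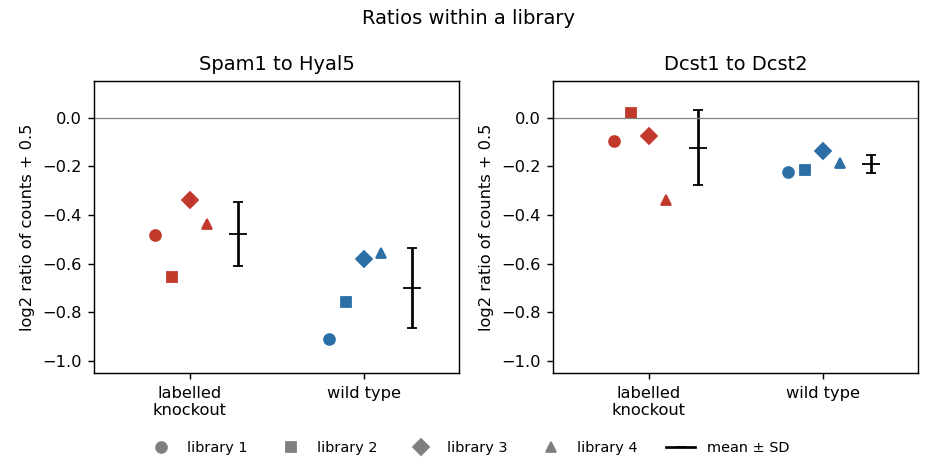
Log2 ratio of counts (0.5 added) of Spam1 to Hyal5 and of Dcst1 to Dcst2 in each library, with mean ± SD beside each group. For Spam1 to Hyal5 the means are -0.48 in the labelled knockouts and -0.70 in the wild types, and the groups overlap at labelled knockout 2.

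How far the genes moved together was described by Pearson's r of log2 CPM over the 8 libraries, which share the position of labelled knockout 3. Over the 36 pairs r ran from 0.328 to 0.967, with a median of 0.737. The 8 pairs with Spaca6 had a median of 0.495 and the other 28 a median of 0.787. Over the 7 libraries without labelled knockout 3 the median over the 36 pairs was 0.475, and 3 pairs stayed above 0.9: Izumo3 with Spam1 (0.919), Dcst1 with Dcst2 (0.911), and Izumo1 with Izumo2 (0.905). The mean log2 CPM of the round spermatid markers had an r of 0.993 with Izumo1, 0.974 with Izumo2, 0.956 with Izumo3, 0.915 with Hyal5, 0.901 with Spam1, 0.858 with Dcst1, 0.805 with Tmem95, 0.748 with Dcst2 and 0.561 with Spaca6. Without labelled knockout 3 these were 0.974 for Izumo1 and 0.958 for Izumo2, against 0.322 to 0.836 for the other 7. The elongating spermatid markers gave another order without labelled knockout 3. Their r was 0.919 with Izumo2, 0.822 with Dcst1, 0.770 with Dcst2, 0.741 with Izumo1 and 0.639 with Izumo3. It was 0.445 with Spam1, 0.345 with Spaca6, 0.343 with Tmem95 and 0.201 with Hyal5. With the round spermatid markers Dcst2 had 0.482 and Hyal5 0.616 in these libraries.

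The genes most like the mean standardised profile of the 9, among 11421 genes with a symbol and at least 5 CPM, were Adam26b (r 0.992), Zhx3 (0.992), Tex50 (0.990), Hcfc2 (0.990) and Rasl2-9 (0.990) over the 8 libraries. Without labelled knockout 3 their r was 0.968 to 0.980, in libraries that had also served to choose them. An r above 0.9 was reached by 8.76% of the 11421, so likeness at that level is common in these libraries, and by 1.92% without labelled knockout 3.

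Of 30 other sperm factors for egg binding and fusion, 29 were found and tested, and 0 passed edgeR's test in either direction, the smallest unadjusted p being 0.115. Their log2 fold changes ran from -0.10 to 0.27 with a median of 0.08, 22 above 0 and 7 below. The 3 with the smallest p were Pkdrej, a polycystin-like protein of the sperm head, at 75.2 ± 18.2 CPM in the labelled knockouts and 62.4 ± 4.98 CPM in the wild types (log2 fold change 0.27, SE 0.16), Tmprss12, a serine protease, at 23.3 ± 2.32 and 21.2 ± 0.465 CPM (0.13, SE 0.11), and Spink2, an acrosomal protease inhibitor, at 303.2 ± 65.1 and 272.6 ± 12.8 CPM (0.15, SE 0.15). Labelled knockout 3 was the lowest library for 24 of the 29, at a median of 72.2% of the wild-type mean.

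Of 11 other genes for hyaluronidases and hyaluronan turnover, 9 passed the filter and 0 passed edgeR's test (smallest unadjusted p = 0.0846), with 5 log2 fold changes above 0 and 4 below (median 0.04). Hyal4, between Hyal6 and Spam1, had 4.24, 5.21, 4.29 and 4.96 CPM in labelled knockouts 1 to 4, against 2.73, 3.64, 4.13 and 4.05 CPM in wild types 1 to 4. All libraries labelled knockout were above all wild types, labelled knockout 3 included (log2 fold change 0.36, SE 0.19, edgeR adjusted p = 1.00). The margin was narrow, and the pattern held for 1 of the 9 tested, against 0.981% of all tested genes. Hyal1 and Hyal3 are further hyaluronidase genes. The log2 fold change was 0.30 for Hyal1 (SE 0.21) and -0.31 for Hyal3 (SE 0.27). Hyal6, at the far end of the cluster and chosen after its values were seen, had 117, 116, 78.2 and 98.9 CPM in libraries labelled knockout, against 92.8, 106, 109 and 102 CPM in wild types. Labelled knockout 3 was its lowest library too, and its log2 fold change was -0.002 (SE 0.13). Of 7 genes for egg-side partners only Cd81, Cd9 and Zp3 passed the filter, and 0 passed edgeR's test (smallest unadjusted p = 0.473). The JUNO gene Izumo1r was at 0 in 2 of the libraries labelled knockout and 1 wild type, and at 0.150 CPM at most in the others, about the limit set by a count of 0.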

How the data were processed

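Per the labels' protocols, adult mouse testis RNA (TRIzol, DNase) went into TruSeq libraries. The authors deposited raw counts per Ensembl gene, whole numbers without normalization. Trimmomatic, STAR, featureCounts and DESeq2 with GRCm39 and mm39 are named in the submitters' processing notes; versions, strand setting and the handling of multiply matching reads are not stated there or in the labels. Of 56748 identifiers, 52073 were matched to a symbol, and 0 columns lacked a sample. Libraries of a group differed beyond sampling noise (chi-square per gene at least 4.52).

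Counts were filtered with filterByExpr (minimum 10, total 15), scaled by TMM and compared with edgeR 4.0.16 (quasi-likelihood, limma 3.58.1, R 4.3.3), Benjamini-Hochberg over all 21805 genes, threshold 0.05. Each fold change is the log2 of labelled knockout over wild type, and its SE is the log2 fold change over the square root of F. CPM refer to the total of tested genes. Ratios were log2 of counts plus 0.5, tested by exact permutation. In simulated counts for this comparison over 21430 genes, 77% of genes changed by 1 on the log2 scale and 100% of those changed by 2 were found, with 16 false calls. The members and gene lists were chosen with earlier results of these data known. Named are all 9 genes, Ak9, the 3 other list members with the smallest p where none passed, the 5 most alike genes and overlapping neighbours. Hyal6 and the epididymal genes were named after their values were seen. Fimp was not matched. Copies were sought with blastn 2.17.0. Coordinates are on GRCm38, from GENCODE M21 for genes and from RefSeq (GRCm38.p6) for sequences. Alternatives were a replicate block, RLE, no filter, DESeq2 1.42.0, limma-voom, a minimum mean of 1 CPM, a spermatid covariate and leaving out each library.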

Additional observations from a re-analysis of the deposited data

Results flagged for a closer look

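In 4 of 24 groups of 4 values, a library stood far from the other 3, by Dixon's test on the gap to its nearest neighbour relative to the group's range. Labelled knockout 3 was the low library for Izumo1 (40.1 CPM), Izumo3 (50.1 CPM) and Spam1 (44.0 CPM). Wild type 2 was the low library for Tmem95 (17.2 CPM). Chance alone flags about 5% of such groups, and the 3 values of labelled knockout 3 come from 1 library.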

How the results depend on the processing

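None of 15 alternatives called any of the 9 genes, the lowest adjusted p being 0.0734 for Izumo2 without labelled knockout 3, and Izumo1, Izumo2, Izumo3 and Spam1 stayed above 0 in all 15. The count over all genes, 4, all higher, was 26 without a filter (16 higher, 10 lower), 46 with DESeq2 (23 and 23), 29 with the spermatid score (10 and 19) and 3 to 35 with each library left out. It was 33 without labelled knockout 1 (9 higher, 24 lower), 35 without labelled knockout 3 (23 and 12) and 33 without labelled knockout 4 (14 and 19). Fold changes near 0 changed sign: Tmem95 was -0.018 with the replicate block, -0.0096 with limma-voom, -0.023 with the score and -0.26 to 0.25 with a library left out. Dcst1 was -0.0035 with the score and -0.071 to 0.17 with a library left out. Dcst2 was -0.041 with the replicate block, -0.0016 without a filter, -5.31e-06 at a mean of at least 1 CPM, -0.044 with limma-voom, -0.063 with the score and -0.17 to 0.14 with a library left out. Spaca6 was -0.082 to 0.0046 and Hyal5 -0.18 to 0.19 with a library left out. The Dcst1 to Dcst2 difference was 0.020 to 0.14 and that of Spam1 to Hyal5 0.15 to 0.28. The cause was not tested. Same-numbered libraries did not vary together (r 0.0742, 0.0412, -0.0188 and 0.0295). These r cannot tell whether such a pair shares a batch, and the labels do not say what the numbers stand for. The replicate block called 4 genes and 0 of the 9. With the ratios paired by number, the exact sign-flip permutation p was 0.125 for Spam1 to Hyal5 and 0.5 for Dcst1 to Dcst2. The smallest p that 4 pairs allow in this test is 0.125. With 4 libraries a group, an SE of 0.10 to 0.25 limits what could be detected.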
